A study of Mus musculus with 16 samples.

Results

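The fasting response of wild type mouse liver was taken as the difference between 4 arrays of liver RNA from fasted and 4 from fed wild type mice, 8 of the 16 arrays of a study that also held fed and fasted mice lacking vanin-1. All mice were males, individually housed on a standard chow and aged 14 to 16 weeks, and the wild type animals were C57Bl/6J. The fasted group went without food for 24 h, from 09.00 h to 09.00 h, under lights that were on from 21:00 to 09:00. The fed group carries a time point of 24 h of normal feeding, and both groups were otherwise kept the same way. Arrays are named below by group and replicate number (fed WT 1 to 4, fasted WT 1 to 4). No label states that every array came from an animal of its own, so p-values cover only the spread among these samples, which may be technical. Levels are log2 RMA intensities, 18820 genes were tested, and a gene was called where the limma p, adjusted by Benjamini-Hochberg over all genes, was below 0.05.

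In a liver without food, glycogen is used up first, and glucose is then made from lactate, glycerol and amino acids while fatty acids from adipose tissue are oxidised and turned into ketone bodies. Low insulin releases the transcription factor FoxO1, glucagon and glucocorticoids drive gluconeogenic genes, and the fatty acid sensor PPARα drives genes of fatty acid transport and oxidation. The sterol regulatory element binding proteins, which drive cholesterol and fatty acid synthesis genes when insulin or sterol demand is high, are less active in the fasted state.

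The tissue was checked against its markers before the comparison. The mean of 16 hepatocyte marker genes lay between 12.72 and 12.83 on the fasted and between 12.78 and 12.82 on the fed wild type arrays. Each of the 16 arrays correlated at 0.993 to 0.997 with the mean of the rest of its group across genes. Fasted WT 4 stood apart. On this array 25 genes lay more than 1 log2 unit above every other array and 4 lay more than 1 below. By the same gap fed KO 4 had 19 genes above and 2 below, and fed WT 4 had 4 above and 10 below. Of the 25 genes on fasted WT 4, 20 were among 28 measured markers of pancreatic acinar cells, which make digestive enzymes. The mean of the acinar markers was 6.83 on fasted WT 4 and between 3.81 and 3.96 on the other 15 arrays. Ctrb1, which encodes a chymotrypsinogen, read 10.12 on fasted WT 4 and 3.71 to 4.44 elsewhere, and the carboxypeptidase gene Cpa1 read 9.88 against 4.25 to 4.69. The mean of 13 markers of pancreatic endocrine cells was 4.11 on fasted WT 4 and between 3.96 and 4.10 on the other fasted arrays. No acinar marker was called, and 0 of the 28 had an unadjusted p under 0.05. With the signal on 1 fasted array the spread was wide, so this test could hardly call these markers. Their median log2 difference was 0.82, and -0.02 without fasted WT 4. The results below were computed with and without fasted WT 4, and the part of the pancreas transcripts in them was not tested. The letters of the position code in the array names differed between the fasted and fed groups, so position letter and diet cannot be told apart. In bulk tissue fewer cells of a type and less RNA per cell cannot be told apart either.

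**Figure D1:**
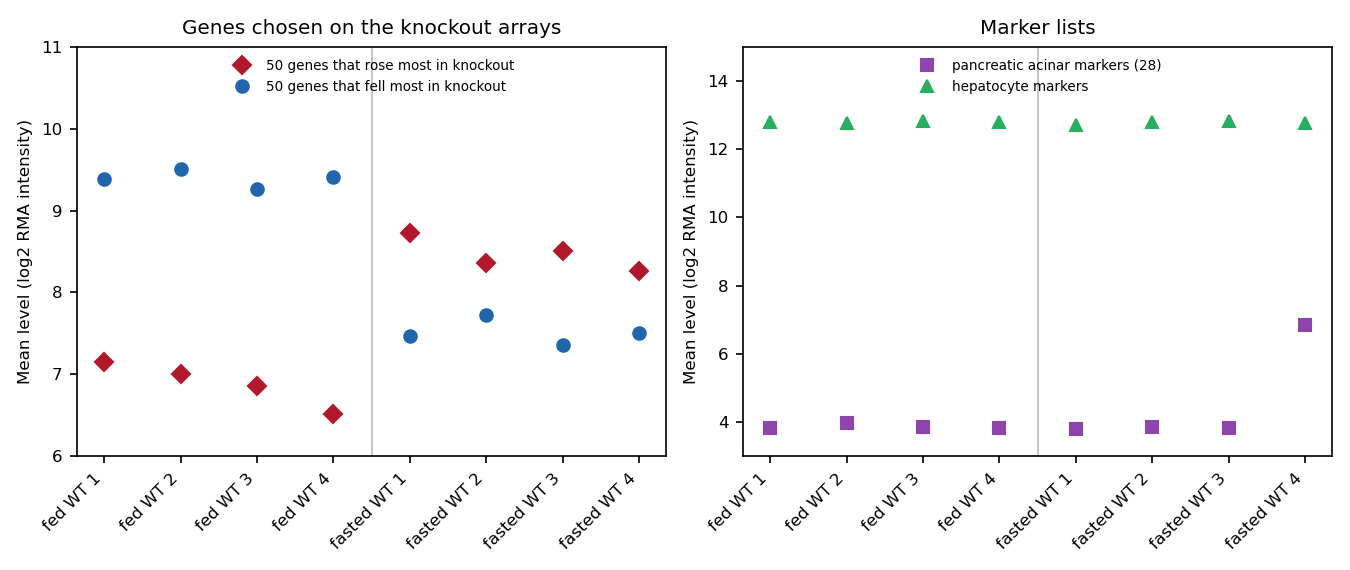
Mean level in log2 RMA intensity on each of the 8 wild type arrays, for genes chosen on the knockout arrays (left) and for marker lists (right), with 1 point per array and list. Fasted WT 4 reads 6.83 for the acinar markers while the hepatocyte markers stay between 12.72 and 12.83 on all 8 arrays.

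Of the 18820 genes, 1432 (7.61%) were called, 629 higher (3.34%) and 803 lower (4.27%) in fasted liver. The median log2 difference over all genes was 0.01, and the median standard error of a difference was 0.10. Most calls were of modest size, with 81 genes at least 2-fold higher and 107 at least 2-fold lower. For 1241 of the called genes the 4 fasted and 4 fed arrays did not overlap. Most genes named below were chosen by a rule that required this, so their lack of overlap is no separate result. Over all genes tested, called or not, the groups did not overlap for 1133 genes higher (6.02%) and 1203 genes lower (6.39%). Without fasted WT 4 the count fell to 880 (4.68%), 392 higher (2.08%) and 488 lower (2.59%), of which 853 were also called with it and 0 had changed direction. Leaving out the other arrays gave between 1033 genes (without fed WT 4) and 1608 genes (without fasted WT 1), and 727 of the 1432 genes stayed called whichever of the 16 arrays was left out. Of the 111 called genes given with values below, 56 lost their call within position number 05 of the array names (2 fasted against 2 fed arrays) and 29 within number 07. The split into higher and lower depended on scaling: 43.9% of called genes were higher with the values as deposited, and 65.2% (1014 higher, 542 lower) after centring arrays on their medians.

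**Figure D2:**
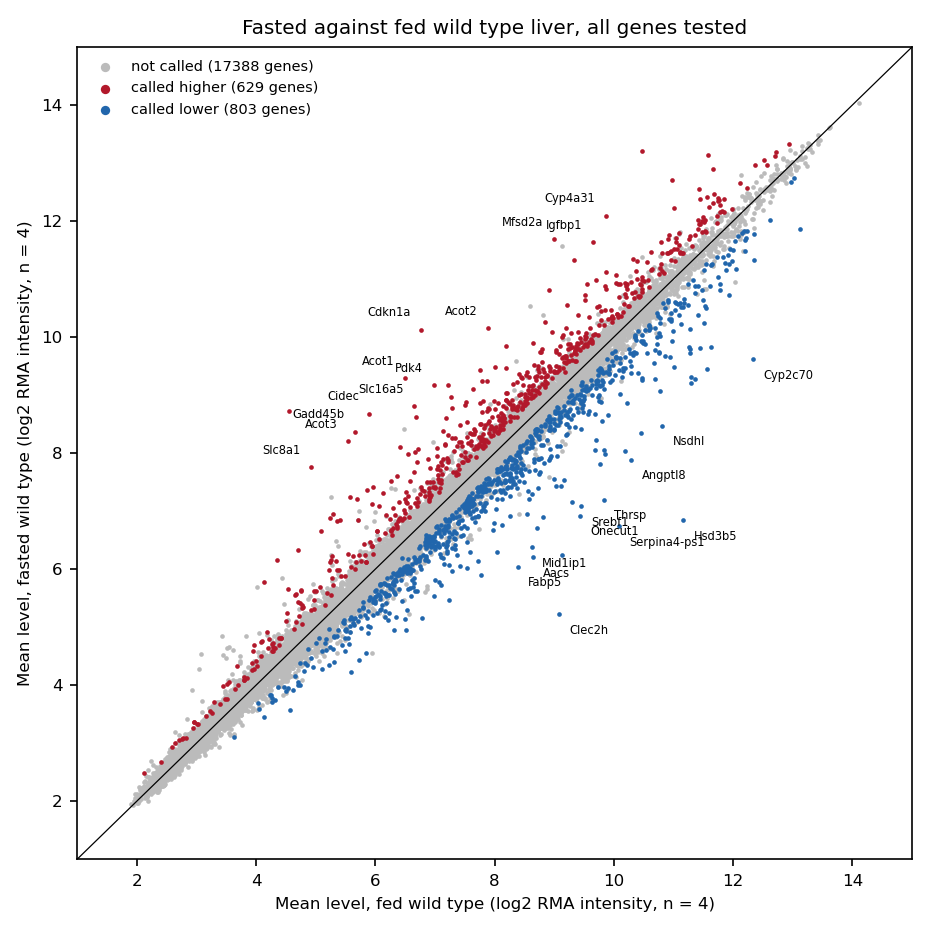
Mean level of every gene tested in fed (horizontal axis) and fasted (vertical axis) wild type liver, in log2 RMA intensity (n = 4 arrays each), with called genes in colour and the genes taken by the naming rule labelled. The 629 higher and 803 lower genes lie on both sides of the line of equal levels, and Hsd3b5 and Clec2h lie farthest below it among the labelled genes.

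**Figure D3:**
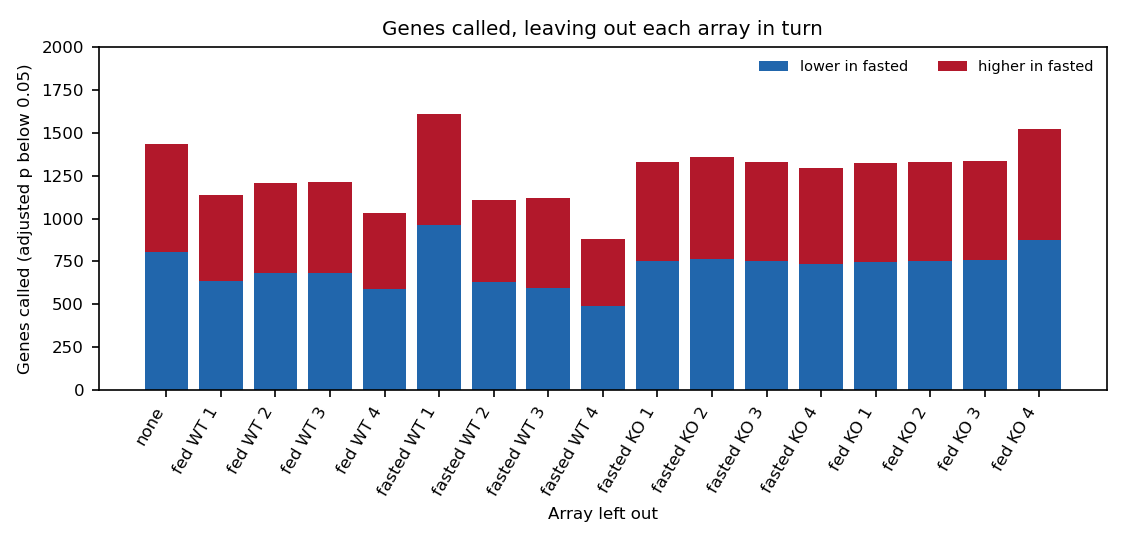
Number of genes called higher and lower in fasted against fed wild type liver with no array left out and with each of the 16 arrays left out in turn. The count was lowest without fasted WT 4 (880) and highest without fasted WT 1 (1608).

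The largest rise of all called genes was that of Gm15441, a long noncoding RNA gene that lies antisense to Txnip and that was singled out after its values were seen. It read 4.97, 4.68, 4.75 and 3.81 on fed WT 1 to 4 and 10.38, 9.79, 6.90 and 7.87 on fasted WT 1 to 4. All fasted arrays lay above all fed arrays, with fasted WT 3 the lowest of them (log2 difference 4.18, SE 0.58, limma adjusted p = 4.19e-04). The fed mean of 4.55 lay under the highest array median over all probe sets, 5.29, so the size of this rise is not exact. Txnip, which encodes an inhibitor of thioredoxin, did not pass the test (log2 difference 0.39, SE 0.21, limma adjusted p = 0.303).

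Cdkn1a, which encodes the cell cycle inhibitor p21, had the next largest rise among called genes. It read 6.75, 7.68, 5.65 and 6.99 on the fed and 10.12, 9.77, 10.42 and 10.20 on the fasted arrays, a 10.3-fold rise (limma adjusted p = 7.81e-04). The fasted arrays lay close together and above all fed arrays, which spread over more. The largest fall was that of Hsd3b5, a steroid dehydrogenase gene that is high in male liver, at 11.03, 10.71, 11.46 and 11.47 fed and 5.88, 7.78, 6.87 and 6.82 fasted, 20.1-fold lower (limma adjusted p = 1.06e-05). Every fasted array lay far below every fed one. Clec2h, a C-type lectin gene, fell at least 14.5-fold, from 8.51 to 9.46 fed to 4.94 to 5.54 fasted, with a fasted mean of 5.22 that lay under the highest array median of 5.29. Serpina4-ps1, a serine protease inhibitor pseudogene, fell 10.2-fold and did not overlap between the groups.

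**Figure D4:**
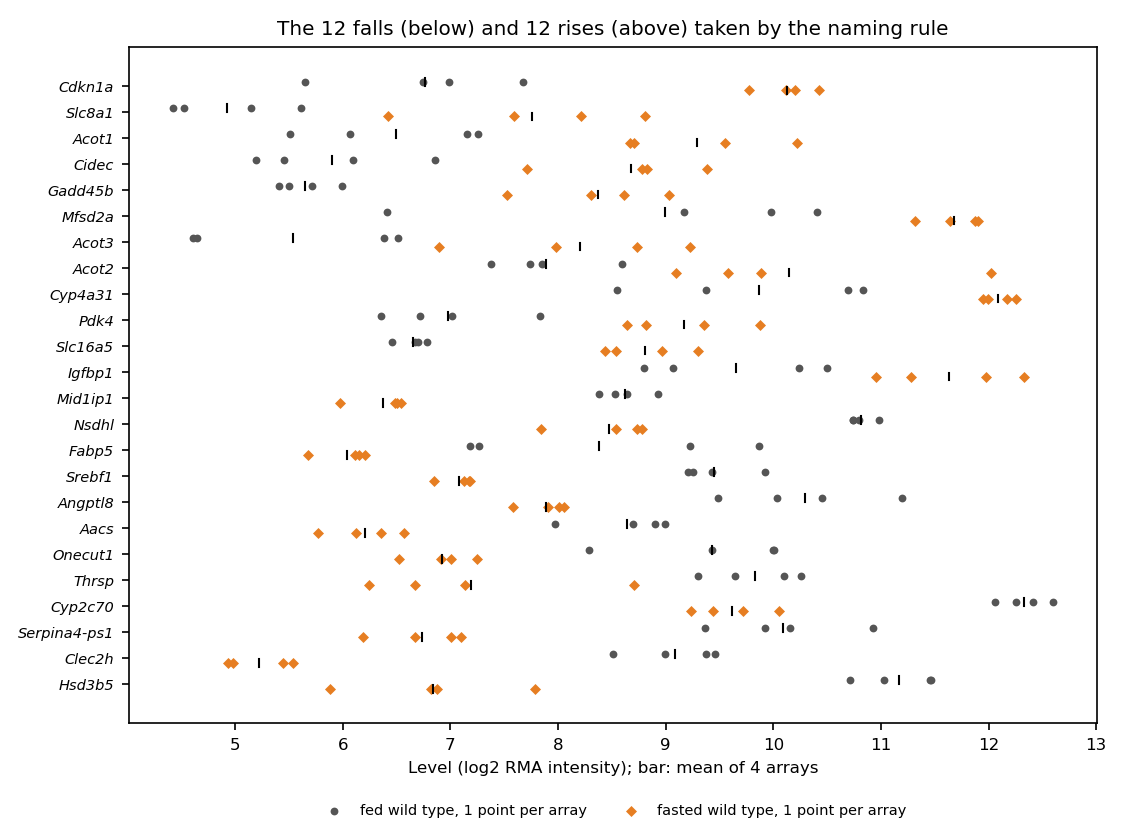
Level in log2 RMA intensity of the 12 rises (upper rows) and 12 falls (lower rows) taken by the naming rule, with 1 point per array, circles for fed and diamonds for fasted wild type liver, and a bar at the mean of 4 arrays. The naming rule required the 4 fasted points of each gene to lie on one side of the 4 fed points. Thrsp and Acot2 each show 1 fasted array away from the rest of its group.

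Among 44 measured PPARα targets and genes of fatty acid uptake and oxidation, 25 rose and 0 fell, with a median log2 difference of 0.52. Over all genes 3.34% rose and 4.27% fell, and these shares apply to every list count below. Of the 44 genes, 21 rose without fasted WT 4 and 18 without fed WT 4. The called members included a gene of uptake (Slc27a1), genes of carnitine transfer (Cpt1a, Cpt2, Slc25a20) and genes of mitochondrial and peroxisomal oxidation (Acadm, Hadha, Ehhadh, Acaa1a). The other 19 did not pass the test, among them other genes of fatty acid uptake and binding: Cd36, Slc27a2, Slc27a4 and Fabp1 had log2 differences of 0.17, 0.24, 0.28 and -0.08 (limma adjusted p = 0.738, 0.0904, 0.238 and 0.752). Ehhadh, the bifunctional enzyme of peroxisomal oxidation, read 11.11, 10.77, 10.90 and 11.09 fed and 13.01, 12.84, 12.53 and 12.47 fasted, a 3.34-fold rise (limma adjusted p = 6.17e-05). Slc27a1, a fatty acid transporter gene more usual in muscle, read 7.38, 7.23, 7.51 and 6.94 fed and 9.02, 9.22, 8.50 and 9.15 fasted (3.26-fold, limma adjusted p = 3.03e-04). Neither gene overlapped between the groups. Cpt1a, the carnitine palmitoyltransferase that admits fatty acids to mitochondria, rose 1.56-fold on an already high fed level of 11.41 to 11.78 (limma adjusted p = 6.15e-04). The fatty acid hydroxylase gene Cyp4a31 rose 4.68-fold, and its fed arrays spread from 8.55 to 10.84 while the fasted ones lay between 11.95 and 12.26. Its relative Cyp4a14, named here after its values were seen, showed the same pattern more widely, at 12.26, 10.11, 11.29 and 8.26 fed and 13.17 to 13.25 fasted. Its rise (6.66-fold, limma adjusted p = 0.0225) lost the call without fasted WT 3, fasted WT 4, fed WT 2 or fed WT 4. Ppara itself, the gene of the receptor, did not pass the test (log2 difference 0.07, SE 0.17, limma adjusted p = 0.863), and its groups overlapped.

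Acyl-CoA thioesterases split fatty acyl-CoA into free fatty acid and coenzyme A. Of 13 measured, 6 rose and 0 fell. Acot1, the cytosolic enzyme, read 7.15, 6.07, 7.26 and 5.51 fed and 10.22, 9.55, 8.70 and 8.67 fasted (6.92-fold, limma adjusted p = 0.00111). Acot2, its mitochondrial relative, rose 4.78-fold (limma adjusted p = 0.00567), with fasted WT 1 at 12.02 and the other fasted arrays at 9.10 to 9.89. Acot3, a peroxisomal enzyme, rose 6.37-fold (limma adjusted p = 0.00347). The 3 genes lie side by side in the genome and are close in sequence, so their probe sets may share signal. Vnn1 encodes vanin-1, a pantetheinase that feeds on coenzyme A breakdown, and its rise was not stable. It read 10.34, 8.74, 9.85 and 6.71 fed and 11.47, 11.24, 9.93 and 10.60 fasted, overlapped between the groups, and had a log2 difference of 1.90 (limma adjusted p = 0.0397). Leaving out fed WT 4 brought it to 1.17 and ended the call, as did leaving out fed WT 2, fasted WT 1, 2 or 4, fed KO 1, 2 or 3, or fasted KO 1 or 4, one at a time. Vnn3, a second gene of the family, rose 1.79-fold (limma adjusted p = 0.0109), a call lost in a fit to the 8 wild type arrays alone, and Nudt7, a peroxisomal coenzyme A hydrolase gene, fell 3.47-fold, from 11.55 to 11.77 fed to 9.60 to 10.05 fasted (limma adjusted p = 3.79e-06).

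Ketone bodies are made in liver mitochondria and leave the cell through monocarboxylate carriers. Of 8 measured genes of their synthesis and export 3 rose (Acat1, Slc16a1 and Slc16a7) and 1 fell, but only 1 rise was left when any of fasted WT 1, 2 or 3, fasted KO 1 or 4, fed WT 2 or 4, or fed KO 2 was left out. Slc16a1, a carrier for lactate and ketone bodies, rose 1.94-fold, at 9.49, 9.13, 9.07 and 9.09 fed and 10.48, 10.36, 10.04 and 9.72 fasted (limma adjusted p = 9.28e-04). The groups did not overlap. Slc16a5, another member of that carrier family, rose 4.47-fold, from 6.45 to 6.79 fed to 8.44 to 9.30 fasted (limma adjusted p = 3.72e-04). Bdh2, a cytosolic hydroxybutyrate dehydrogenase gene, fell 3.03-fold (limma adjusted p = 6.17e-05), with fasted WT 4 lowest at 6.38 and the other fasted arrays at 7.08 to 7.20.

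Of 12 measured genes that set the fate of pyruvate in mitochondria, 2 rose and 0 fell. Pdk4, the kinase that shuts off pyruvate dehydrogenase, read 7.84, 7.01, 6.35 and 6.71 fed and 9.35, 9.88, 8.64 and 8.82 fasted, a 4.58-fold rise (limma adjusted p = 0.00120). Pcx, the pyruvate carboxylase that starts gluconeogenesis, rose 1.41-fold (limma adjusted p = 0.0106; not called from the wild type arrays alone).

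Of 28 measured genes of gluconeogenesis and its control, 13 rose and 0 fell, with a median log2 difference of 0.30, and 8 rose without fasted WT 3 or without fed WT 1. Ppargc1a, the coactivator PGC-1α that drives gluconeogenic genes, read 7.97, 8.12, 8.11 and 7.85 fed and 9.46, 8.86, 9.84 and 9.79 fasted (2.78-fold, limma adjusted p = 0.00283). No fasted array overlapped the fed ones. Among the enzymes, Pck1, the phosphoenolpyruvate carboxykinase, rose 1.45-fold from fed levels of 12.27 to 12.79 (limma adjusted p = 0.00312), and the glucose-6-phosphatase gene G6pc rose 1.52-fold from 11.93 to 12.62 (limma adjusted p = 0.00686). Both lay near the top of the measured range of 1.26 to 14.19 in fed liver. Gpt2, the mitochondrial alanine aminotransferase, rose 1.79-fold (limma adjusted p = 6.45e-04), the transcription factor gene Cebpb 1.95-fold (limma adjusted p = 0.0104) and Foxo1 1.44-fold (limma adjusted p = 0.00799). Tat, tyrosine aminotransferase, rose 1.39-fold (limma adjusted p = 0.0378), a call lost without fasted WT 3, fasted WT 4 or fed WT 1.

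Hormones and hormone-like proteins that the liver secretes moved in both directions, 6 of 22 measured genes higher and 2 lower. Fgf21, a fasting hormone and PPARα target, read 5.39, 5.31, 5.23 and 5.51 fed and 7.24, 6.74, 6.99 and 6.36 fasted, 2.78-fold higher (limma adjusted p = 2.83e-05). The fed arrays lay close to the array medians and below every fasted array. Igfbp1, an insulin-repressed binding protein of IGF-1, read 8.79, 10.24, 9.07 and 10.50 fed and 11.28, 10.95, 12.33 and 11.98 fasted, 3.95-fold higher (limma adjusted p = 0.0135). The angiopoietin-like proteins, which inhibit lipoprotein lipase in turn in the fed and fasted state, parted. Angptl4 rose 2.43-fold (limma adjusted p = 0.0168; not called from the wild type arrays alone), its fed WT 4 array standing low at 8.42 beside 10.02 to 10.24. Angptl8 read 10.04, 10.45, 9.49 and 11.20 fed and 8.01, 8.05, 7.58 and 7.91 fasted, 5.30-fold lower (limma adjusted p = 7.70e-04). Lect2, a hepatokine gene, fell 1.82-fold (limma adjusted p = 0.00743).

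Of 29 measured fatty acid synthesis genes, 14 were lower, 1 was higher and 14 did not pass the test, with a median log2 difference of -0.34, and the 1 rise (Elovl5) lost its call without fasted WT 1, 3 or 4 or fed WT 2 or 3. Srebf1, which encodes the transcription factor SREBP-1, read 9.20, 9.43, 9.25 and 9.92 fed and 7.17, 7.13, 6.85 and 7.18 fasted, 5.17-fold lower (limma adjusted p = 3.79e-06). Fasn, the fatty acid synthase, read 10.64, 11.01, 10.48 and 10.97 fed and 8.94, 9.11, 8.48 and 9.73 fasted, 3.27-fold lower (limma adjusted p = 0.00166). Both genes fell on all 4 fasted arrays relative to all fed ones. Thrsp, a regulator of lipogenesis, fell 6.22-fold (limma adjusted p = 0.00970), with fasted WT 4 at 8.71 and the other fasted arrays at 6.25 to 7.14. Mid1ip1, which activates acetyl-CoA carboxylase, fell 4.74-fold (limma adjusted p = 8.81e-06). Aacs, which makes acetoacetyl-CoA for lipid synthesis, fell 5.42-fold (limma adjusted p = 0.00117). The desaturase gene Scd1, at 13.09 to 13.36 fed and 12.65 to 13.17 fasted, did not pass the test (log2 difference -0.29, SE 0.11, limma adjusted p = 0.138), and neither did Pnpla3, a lipogenic droplet enzyme gene (log2 difference -0.02, limma adjusted p = 0.968), which lay near the array medians.

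Cholesterol synthesis was the list with the highest share of called genes among the 56 described, 15 of 18 measured genes lower and 0 higher, with a median log2 difference of -1.41. Without any 1 array the count was 15 or 16. The called genes ran from the start of the mevalonate route (Hmgcs1, Mvk, Pmvk, Mvd) over its prenyl steps (Idi1, Fdps, Fdft1) to the sterol ring (Sqle, Lss, Cyp51, Msmo1, Nsdhl, Dhcr7). Nsdhl, a sterol dehydrogenase of the late steps, read 10.74, 10.80, 10.74 and 10.98 fed and 8.54, 8.78, 7.84 and 8.73 fasted, 5.07-fold lower (limma adjusted p = 9.31e-05). Sqle, squalene epoxidase, fell 4.41-fold (limma adjusted p = 0.00645), and Fdps, farnesyl diphosphate synthase, fell 4.32-fold (limma adjusted p = 9.31e-05). Neither overlapped between the groups.

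The promoters of these genes, which fell together, were looked at beside those of other lists. RefSeq (GRCm38.p6) gave promoters of 300 bases, from 250 before to 50 after the start, for 15 of the 18 genes, and 7 motifs were searched on either strand. The CCAAT box (letters CCAAT, the site of the factor NF-Y that acts beside sterol regulatory element binding proteins) was found in 15 of the 18 promoters of those genes (83.3%), at least 1 for each of the 15 genes, against 37.5% of promoters of all genes tested and 37.4% of all promoters. Among the promoters of genes called lower as a whole it was found in 41.8%, and among those called higher in 38.9%. In other lists it was found in 57.1% of promoters of clock genes and 51.2% of those of FoxO and glucocorticoid receptor targets. It was found in 47.1% for the fatty acid synthesis list and 46.2% for the PPARα list. This motif was singled out of the 7 after the shares were seen, and the shares carry no test. The sterol regulatory element core (TCACNCCAC) was found in 1 of the 18 promoters, that of Hmgcs1, and in 1.20% of promoters of all genes tested. The letters below are the 250 bases before the start of 4 of the genes, shown because they carry several CCAAT boxes, with these on either strand in capitals and, in Hmgcs1 only, the sterol element core as well. The coordinates are chrX:72918271-72918520, plus strand (Nsdhl); chr13:119690101-119690350, plus strand (Hmgcs1); chr8:64733579-64733828, minus strand (Msmo1); and chr5:114444019-114444268, plus strand (Mvk), all GRCm38.p6.
Nsdhl: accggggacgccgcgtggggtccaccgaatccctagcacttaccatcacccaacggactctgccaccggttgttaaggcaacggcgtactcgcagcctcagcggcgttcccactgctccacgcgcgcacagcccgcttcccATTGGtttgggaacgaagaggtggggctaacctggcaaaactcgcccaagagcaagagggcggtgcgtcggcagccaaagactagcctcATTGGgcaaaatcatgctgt
Hmgcs1: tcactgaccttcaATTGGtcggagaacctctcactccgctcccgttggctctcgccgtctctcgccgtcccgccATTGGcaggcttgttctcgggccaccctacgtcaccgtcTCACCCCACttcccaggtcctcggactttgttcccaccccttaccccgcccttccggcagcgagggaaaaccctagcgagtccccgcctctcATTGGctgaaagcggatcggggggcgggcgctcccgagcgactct
Msmo1: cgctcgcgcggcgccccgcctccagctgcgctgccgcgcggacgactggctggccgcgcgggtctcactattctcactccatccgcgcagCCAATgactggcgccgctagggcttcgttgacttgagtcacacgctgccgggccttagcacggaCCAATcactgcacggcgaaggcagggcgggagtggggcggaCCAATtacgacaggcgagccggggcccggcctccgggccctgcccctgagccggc
Mvk: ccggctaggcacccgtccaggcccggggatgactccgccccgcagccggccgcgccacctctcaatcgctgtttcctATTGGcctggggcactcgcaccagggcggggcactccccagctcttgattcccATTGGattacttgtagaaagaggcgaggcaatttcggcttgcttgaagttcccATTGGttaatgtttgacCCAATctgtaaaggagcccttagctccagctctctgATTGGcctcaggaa
In these windows Nsdhl held 2 CCAAT boxes, Hmgcs1 and Msmo1 3 each and Mvk 5, and the sterol element core of Hmgcs1 began 137 bases before the start. Hmgcs1, which makes the HMG-CoA of the cytosol, fell 2.87-fold, from 10.59 to 11.30 fed to 8.96 to 9.91 fasted (limma adjusted p = 9.58e-04). Msmo1, a sterol demethylase, fell 3.95-fold (limma adjusted p = 0.00168) and the mevalonate kinase gene Mvk fell 2.57-fold (limma adjusted p = 3.62e-04). These 3 genes were named after their values were seen.

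The genes that watch over sterols split. Insig1, which holds the sterol-sensing complex in the endoplasmic reticulum and is itself a target of the sterol regulatory proteins, read 11.55, 11.57, 11.06 and 11.60 fed and 9.80, 10.23, 9.71 and 9.52 fasted, 3.10-fold lower (limma adjusted p = 4.74e-04). Insig2, its partner that insulin represses, read 11.81, 11.47, 11.34 and 11.11 fed and 12.34, 12.53, 12.49 and 12.84 fasted, 2.17-fold higher (limma adjusted p = 4.01e-04). The 2 genes moved in opposite directions with no overlap between fed and fasted arrays in either. Stard4, a carrier of cholesterol, fell 3.10-fold (limma adjusted p = 4.54e-04).

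Of 33 measured lipid droplet and triglyceride genes 12 rose, 0 fell and 21 did not pass the test, with a median log2 difference of 0.21. Cidec, a droplet protein that enlarges droplets, read 6.86, 6.10, 5.46 and 5.19 fed and 8.82, 7.71, 8.78 and 9.38 fasted, 6.84-fold higher (limma adjusted p = 2.75e-04). Plin5, a droplet coat protein, read 8.40, 8.48, 8.13 and 7.76 fed and 9.81 to 9.92 fasted, 3.17-fold higher (limma adjusted p = 6.76e-05). Both had fasted arrays wholly above the fed ones. Gpat3, a glycerol phosphate acyltransferase gene, rose 2.86-fold (limma adjusted p = 3.05e-05). Apoa4, an apolipoprotein gene, rose 2.92-fold (limma adjusted p = 8.82e-05). Of 23 measured lipoprotein genes it was the 1 called higher, and 1 was called lower. That was 4.35% each way, near the 3.34% higher and 4.27% lower of all genes. The lower call was lost without fasted WT 4. Mfsd2a, a lysophospholipid carrier, rose 6.45-fold (limma adjusted p = 0.00646; not called from the wild type arrays alone) at 9.17, 10.41, 9.98 and 6.41 fed and 11.32 to 11.90 fasted, with fed WT 4 lowest. Fabp5, a fatty acid binding protein, fell 5.10-fold (limma adjusted p = 0.0127), and its fed arrays read 7.18 and 7.27 at position number 05 (fed WT 1 and 3) and 9.23 and 9.87 at 07 (fed WT 2 and 4). Within number 05 its log2 difference was -1.07 and not called (limma adjusted p = 0.458), and within 07 it was -3.63.

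Of 30 glycolysis and fructose genes 3 were higher and 5 lower, and with 1 array left out these counts ran from 0 to 4 and from 1 to 6, the lowest without fasted WT 3, fasted KO 3 or fasted KO 4 (higher) and without fasted WT 2, fed WT 1 or fed WT 3 (lower). Pklr, the liver pyruvate kinase, read 11.01, 10.72, 10.98 and 10.02 fed and 9.53, 9.12, 8.81 and 9.67 fasted, 2.64-fold lower (limma adjusted p = 0.00607). Of 24 glycogen genes 1 was called each way (4.17%), close to the 3.34% higher and 4.27% lower of all genes: Pygl, the liver glycogen phosphorylase, fell 1.57-fold (limma adjusted p = 0.00129) and Gaa, the lysosomal glucosidase, rose 1.37-fold (limma adjusted p = 0.00451). Rpe, of the pentose phosphate route, fell 1.25-fold (limma adjusted p = 0.00693).

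Of 46 amino acid breakdown genes 5 were higher (10.9%) and 4 lower (8.70%), beside 3.34% and 4.27% of all genes. The higher count was 1 without fasted WT 3 or fasted WT 4 and 3 without fed WT 1 or fed WT 3, and the lower count was 2 without fasted WT 1, 2 or 4, fed WT 1, 3 or 4, fasted KO 1 or 4, or fed KO 2. Of 18 urea cycle genes 3 were higher and 2 lower, with 0 lower without fasted WT 4 and 1 lower without fasted WT 1 or 2 or fed WT 2, 3 or 4. Asl, argininosuccinate lyase, read 11.49 to 11.64 fed and 11.92, 12.35, 12.58 and 12.78 fasted, 1.80-fold higher (limma adjusted p = 0.00315). The ornithine carrier gene Slc25a15 rose 1.44-fold (limma adjusted p = 0.0130; not called from the wild type arrays alone) and Gcat, of threonine breakdown, fell 1.61-fold (limma adjusted p = 0.00707). Mat1a, which makes S-adenosylmethionine, rose 1.32-fold (limma adjusted p = 0.00322), and Gamt, the last enzyme of creatine synthesis, fell 1.81-fold (limma adjusted p = 6.35e-04). Asns, asparagine synthetase, spread from 5.85 to 9.85 fed and from 5.64 to 9.87 fasted and did not pass the test (log2 difference 0.16, SE 0.95, limma adjusted p = 0.949). Glul, glutamine synthetase, did not either (log2 difference 0.10, SE 0.17, limma adjusted p = 0.787).

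Of 37 measured targets of FoxO and the glucocorticoid receptor, 19 were higher, 2 were lower and 16 did not pass the test, with a median log2 difference of 0.67. The higher count was 14 without fasted WT 4 and 13 without fed WT 1. Gadd45b, a stress-induced gene, read 5.40 to 5.99 fed and 8.31, 8.62, 7.53 and 9.03 fasted, 6.58-fold higher (limma adjusted p = 1.77e-05). Gadd45a, its relative, read 6.10, 5.79, 5.67 and 5.94 fed and 4.95, 4.80, 5.10 and 4.76 fasted (log2 difference -0.97, limma adjusted p = 0.00562). The 2 relatives thus moved in opposite directions without overlap. Ddit4, an inhibitor of mTORC1, read 5.58, 6.08, 5.33 and 5.32 fed and 6.36, 6.63, 7.56 and 8.43 fasted, 3.18-fold higher (limma adjusted p = 0.0101), with fasted WT 4 highest. The metallothionein genes Mt1 and Mt2, which glucocorticoids and zinc induce, did not overlap between the groups but did not pass the test, at a log2 difference of 1.93 (SE 0.64, limma adjusted p = 0.0804) and 2.45 (SE 0.86, limma adjusted p = 0.0969). Irs2, a FoxO target of insulin signalling, overlapped (log2 difference 0.72, SE 0.26, limma adjusted p = 0.115). Of 25 growth arrest and p53 targets, which share Cdkn1a, Gadd45b, Ddit4 and others with the former list, 7 were higher and 2 lower. Of 36 cell cycle and replication genes 7 were lower (19.4%) and 1 higher (2.78%), beside 4.27% and 3.34% of all genes. Without fasted WT 4 the higher count was 0. The lower count was 4 without fasted WT 2, fasted WT 4, fed WT 1 or fed WT 4 and 12 without fed KO 4. Among these genes Ccnd2, a cyclin gene, fell 1.42-fold (limma adjusted p = 0.00528). E2f1, a transcription factor of replication genes, fell by 0.62 on the log2 scale (limma adjusted p = 0.0121).

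Genes that differ between male and female liver were called on both sides. Of 28 male-biased genes 9 fell and 0 rose, and 6 fell without fasted WT 4. Keg1, a glycine acyltransferase-like gene, read 11.62, 11.34, 11.59 and 11.72 fed and 9.13, 9.71, 9.48 and 9.49 fasted, 4.33-fold lower (limma adjusted p = 3.70e-05). Of 25 female-biased genes 5 rose and 0 fell, 3 without fasted WT 4. The rises included Acot3, and the male-biased falls included Nudt7, both of which were given above in other lists. Fmo2, a flavin monooxygenase gene, rose 2.68-fold (limma adjusted p = 0.00471), with fasted WT 4 at 9.52 and the other fasted arrays at 8.12 to 8.56. Growth hormone pulses are known to set this bias. Among genes of growth hormone and insulin signalling, Onecut1, the liver factor HNF6, read 8.29 on fed WT 3, 9.43 on fed WT 4 and more on the other fed arrays, and between 6.52 and 7.25 on the fasted arrays, 5.70-fold lower (limma adjusted p = 4.19e-04). Igf1, the growth hormone target that circulates, did not pass the test (log2 difference -0.07, SE 0.07, limma adjusted p = 0.616), nor did Socs2, a feedback inhibitor of growth hormone signalling (log2 difference -0.88, SE 0.46, limma adjusted p = 0.295).

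Among clock genes, Bhlhe40, a transcriptional repressor, read 9.03, 9.41, 8.81 and 8.71 fed and 7.69, 7.46, 7.60 and 7.45 fasted, 2.71-fold lower (limma adjusted p = 5.96e-04). Nr1d2, the repressor REV-ERBβ, fell 1.61-fold (limma adjusted p = 0.0104). Bhlhe41, the relative of Bhlhe40, fell (log2 difference -1.30, limma adjusted p = 0.0295) but lost its call without fasted WT 2, 3 or 4 or fed WT 1 or 3, and Per1 rose 2.07-fold but overlapped between the groups and lost its call without fasted WT 4, fed WT 1 or fed WT 4 (limma adjusted p = 0.0195). Cry1 did not pass the test (log2 difference 0.50, SE 0.27, limma adjusted p = 0.307). In all 2 of 23 clock genes were higher and 3 lower. Leaving out any 1 of the 8 wild type arrays left 1 higher, and 6 were lower without fed WT 4. Of the fed group the labels give 24 h of feeding and no hour of sampling of its own.

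Bile acid genes went both ways, 4 of 37 higher (10.8%) and 6 lower (16.2%), beside 3.34% and 4.27% of all genes. Cyp2c70, the rodent enzyme that makes muricholic acids, read 12.06, 12.26, 12.41 and 12.60 fed and 9.44, 10.06, 9.24 and 9.72 fasted, 6.58-fold lower (limma adjusted p = 1.91e-06). Cyp8b1, which makes cholic acid, read 11.42, 11.09, 11.39 and 10.13 fed and 12.05 to 12.38 fasted, 2.31-fold higher (limma adjusted p = 0.00552). Both were without overlap between the groups. Abcb11, the bile salt export pump, fell 1.65-fold (limma adjusted p = 4.54e-04). Cyp7a1, the rate-limiting enzyme of bile acid synthesis, did not pass the test (log2 difference 0.39, SE 0.43, limma adjusted p = 0.670), and its difference was 0.03 without fasted WT 4, which was highest at 11.87.

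Among 36 solute carriers 9 were lower and 4 higher, with 5 lower without fasted WT 3 or fed WT 1. Slc8a1, a sodium-calcium exchanger, read 4.52, 5.61, 5.14 and 4.42 fed and 6.42, 8.21, 7.59 and 8.80 fasted, at least 7.12-fold higher (limma adjusted p = 0.00937). Slc22a30 fell 2.28-fold (limma adjusted p = 9.58e-04), the phosphate carrier family gene Slc17a4 fell 2.13-fold (limma adjusted p = 0.00504) and Slco1a1, an organic anion carrier, fell 1.98-fold (limma adjusted p = 0.00561). Of 51 xenobiotic enzymes 4 were higher, 1 of them left without fasted WT 4 or fed WT 4 and 2 without fasted WT 2 or fed WT 2, and 6 lower (7.84% and 11.8%, beside 3.34% and 4.27% of all genes). The glutathione transferase gene Gstm3 fell 2.27-fold (limma adjusted p = 6.35e-04), and Ephx2, an epoxide hydrolase that is a PPARα target, rose 1.52-fold (limma adjusted p = 0.00137). Of 25 glutathione and NRF2 genes 2 rose: Srxn1, sulfiredoxin, 2.13-fold (limma adjusted p = 4.91e-04), and Oplah, of glutathione turnover, 1.74-fold (limma adjusted p = 3.31e-04).

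Some genes of complement and coagulation, antigen presentation and protein folding were lower. Of 38 hepatic acute phase genes 0 rose and 2 fell (5.26%), near the 4.27% lower of all genes. Without fasted WT 4 or without fed WT 2, 0 of them fell. Of 37 complement and coagulation genes 7 fell (18.9%, 4 genes without fasted WT 4) and 1 rose (2.70%), beside 4.27% and 3.34% of all genes. The rise lost its call without any 1 of the wild type arrays other than fasted WT 1 and without fasted KO 3 or 4 or fed KO 1 or 3. The coagulation factor gene F11 read 9.70, 9.93, 10.02 and 9.94 fed and 8.13, 8.58, 9.16 and 8.77 fasted, 2.36-fold lower (limma adjusted p = 2.43e-04). Mbl2, a mannose-binding lectin, fell 1.55-fold (limma adjusted p = 0.00271), and Proz, a vitamin K-dependent plasma protein, fell 1.31-fold (limma adjusted p = 0.00664). Of 48 interferon and antigen presentation genes 6 fell and 0 rose, and without fasted WT 4 these were 5 and 1, with the median log2 difference at -0.25 with that array and -0.13 without it. The mean of the list was 7.34 on fasted WT 4, between 7.81 and 8.01 on the other fasted arrays and between 7.95 and 8.08 on the fed arrays, and the part of that array's pancreas transcripts in this was not tested. Irf1, a transcription factor of that response, read 8.35 to 8.60 fed and 7.19 to 7.84 fasted, 1.98-fold lower (limma adjusted p = 6.73e-04), and the immunoproteasome subunit gene Psmb10 fell 1.82-fold (limma adjusted p = 0.00292). Gbp7, a guanylate binding protein, fell 1.70-fold (limma adjusted p = 0.0137). Of 42 endoplasmic reticulum chaperones and folding genes 5 fell (11.9%) and 1 rose (2.38%), beside 4.27% and 3.34% of all genes. The falls numbered 3 without fasted WT 1 or 3 or fed WT 2 or 3, and the rise (Dnajb9) lost its call without fasted WT 2 or 4 or fed WT 1, 2 or 4. Sec61b, a subunit of the protein channel, fell 1.73-fold (limma adjusted p = 0.00285) and Ern1, the unfolded protein sensor IRE1α, fell 1.72-fold (limma adjusted p = 1.31e-04). Hspa5, the chaperone BiP, did not pass the test (log2 difference 0.19, SE 0.15, limma adjusted p = 0.506).

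Of 33 constitutive proteasome subunits 10 were higher, 0 were lower and 23 did not pass the test, with a median log2 difference of 0.24. Leaving out fasted WT 4 left 4 of these calls, and leaving out fed WT 2 or fed WT 4 left 6. Psmd4, the ubiquitin receptor of the proteasome, read 9.23, 9.02, 9.13 and 8.97 fed and 9.56, 9.75, 9.54 and 9.98 fasted, 1.54-fold higher (limma adjusted p = 0.00366). Psmd9 rose 1.65-fold (limma adjusted p = 0.00290) and Psma7 rose 1.40-fold (limma adjusted p = 0.00828). Of 43 ribosome biogenesis genes 8 rose, 4 without fasted WT 4, 5 without fed WT 2 or fed WT 3, and 14 with each array centred on its median. Mybbp1a, a nucleolar protein, rose by 0.59 on the log2 scale (limma adjusted p = 0.00211), Utp18 rose 1.36-fold (limma adjusted p = 0.00507) and Npm1 rose 1.27-fold (limma adjusted p = 0.0121). Of 73 cytosolic ribosomal proteins and of 73 oxidative phosphorylation subunits 0 were called in either direction by limma, with 4 and 3 genes at an unadjusted p under 0.05 and median log2 differences of -0.0016 and 0.0074. Of 60 cytosolic translation factors 3 were higher (5%) and 2 lower (3.33%), near the 3.34% and 4.27% of all genes, and 2 and 1 without fasted WT 4. Among them Eif1a, an initiation factor, rose 1.70-fold (limma adjusted p = 0.00329), and Eef2k, the kinase of elongation factor 2, fell 1.55-fold (limma adjusted p = 0.0107). Of 48 autophagy and lysosome genes 5 were higher (10.4%) and 2 lower (4.17%, near the 4.27% of all genes), with 2 higher without fed WT 4 and 3 without fasted WT 2 or 4 or fed WT 1 or 3. Atg2a and Mitf rose 1.38-fold and 1.34-fold (limma adjusted p = 0.00891 and 0.00472), and Ulk2 fell 1.48-fold (limma adjusted p = 0.00296).

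Hepatocytes near the portal vein and near the central vein differ in their genes. Of 27 periportal genes 9 were higher (33.3%, 6 genes without fasted WT 3 or fasted WT 4) and 1 lower (3.70%). Their median log2 difference was 0.02, with 15 above 0 and 12 below. Of 29 pericentral genes 6 were lower (20.7%) and 1 higher (3.45%). Their median was -0.01, with 13 above 0 and 16 below, and 3 were lower without fasted WT 3, fasted WT 4, fed WT 1 or fed WT 3. Over all genes 3.34% were higher and 4.27% lower. Rgn, the calcium-binding protein regucalcin, fell 2.06-fold (limma adjusted p = 9.13e-04) and Gulo, of vitamin C synthesis, 1.41-fold (limma adjusted p = 0.00528). Cpox, of haem synthesis, rose 1.73-fold (limma adjusted p = 0.00931; not called from the wild type arrays alone), while Alad, an earlier enzyme of the same route, fell 1.31-fold (limma adjusted p = 0.0116). Of markers of other cells, 3 of 25 Kupffer cell and macrophage markers were lower (1 without fasted WT 1, fasted WT 4, fed WT 1, fed WT 2 or fed WT 4), among them Aif1, which fell at least 1.62-fold (limma adjusted p = 0.0121). Over all 25 the mean level was 7.39 to 7.75 on the fasted and 7.64 to 8.15 on the fed arrays. Of 25 stellate cell and fibroblast markers 3 were lower (12%) and 1 higher (4%, near the 3.34% of all genes). The lower count was 1 without fasted WT 2, fed WT 2 or 4, fasted KO 1, 3 or 4, or fed KO 3. The higher count was 0 without fasted WT 1 or 4, fed WT 1 or 4, any 1 of the fasted KO arrays, or fed KO 2 or 3. Among these markers Col3a1, a collagen gene, fell 1.56-fold (limma adjusted p = 0.00399). Of 5 measured erythroid markers 2 were lower (1 without fasted WT 3, fasted WT 4, fed WT 3 or fed WT 4) and 0 higher. Their median log2 difference was -0.04, with 2 above 0 and 3 below. Among them Alas2, an erythroid gene of haem synthesis, fell 1.77-fold (limma adjusted p = 2.27e-04). Of the markers of sinusoidal endothelium (22), cholangiocytes (11), lymphocytes (20) and neutrophils (12) limma called 0, with 3, 1, 5 and 1 at an unadjusted p under 0.05.

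**Figure D5:**
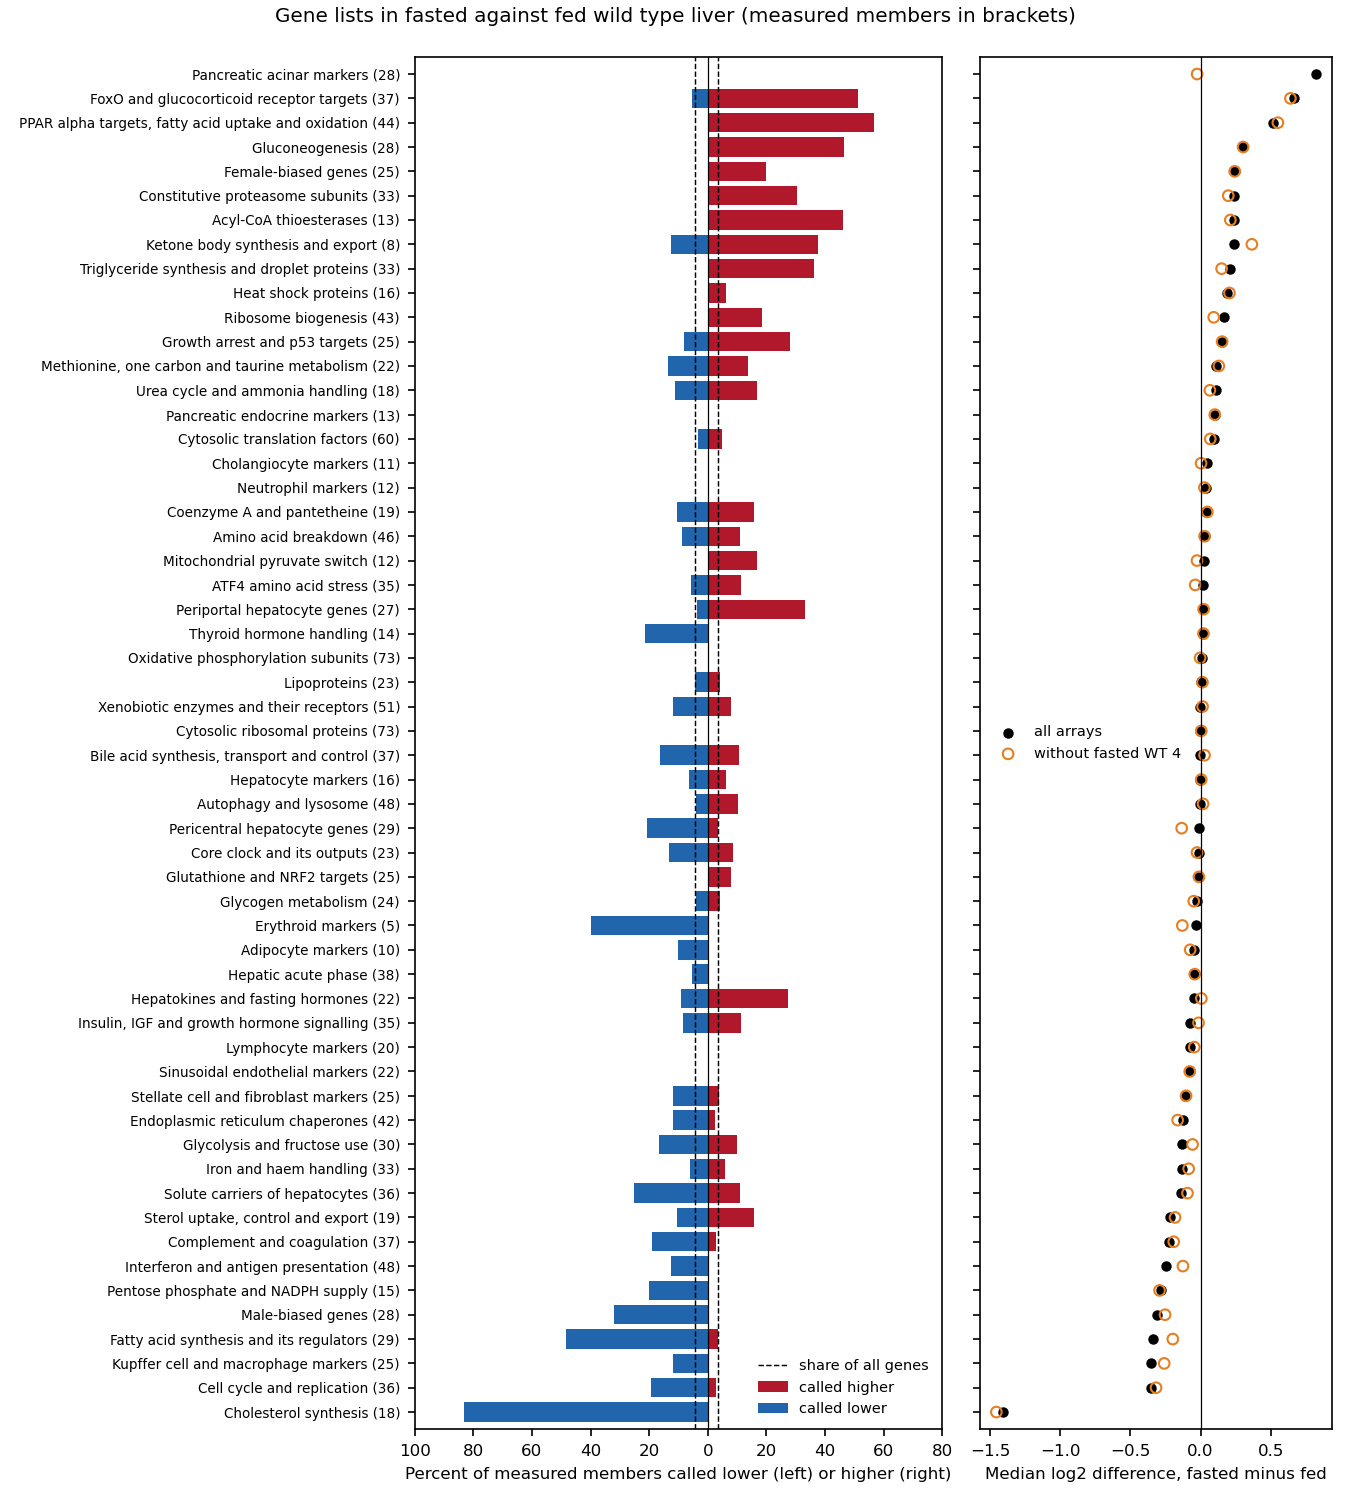
Share of measured members called lower (left bars) or higher (right bars) and median log2 difference (dots, with open circles for the value without fasted WT 4) for gene lists with at least 5 measured members, ordered by median. Dashed lines give the share of all genes, 3.34% higher and 4.27% lower, and cholesterol synthesis lies at the far lower end with 83.3% called lower.

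The knockout arrays entered the fit that gave the spread, and they were also used to see whether the wild type response differed from that of mice without vanin-1. The difference of the fasting responses was called for 0 of 18820 genes (0.00%) by limma, with 924 at an unadjusted p under 0.05. Both comparisons come from one fit that shares its spread, and they share no array. In the knockout 1772 of the 18820 genes were called in the same fit. Of the 1432 genes called in wild type liver, 861 were also called in the knockout in the same direction and 0 in the opposite one. A gene whose difference of responses was not called may still differ, so these counts do not show that the responses were equal. From the 8 knockout arrays alone, the 50 genes that rose most and the 50 that fell most were taken, and the mean of the former minus the mean of the latter was computed per wild type array. It read -2.23, -2.50, -2.41 and -2.90 on fed WT 1 to 4 and 1.26, 0.63, 1.15 and 0.76 on fasted WT 1 to 4. Every fasted array lay above every fed one, and fasted WT 4, with its pancreas transcripts, lay between fasted WT 2 and fasted WT 3.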

How the data were processed

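Liver RNA of 16 mouse samples was hybridised to whole-transcript arrays after biotin labelling, and RNA was used only at an integrity number above 8.0, per the labels' protocols. The authors deposited log2 intensities made by RMA, per the submitters' processing notes; no software version, array library or genome build is given in those notes or the labels. Arrays have no read depth, and their number sets the precision. Of 35556 probe sets 21218 had exactly 1 gene symbol, and the brightest probe set of a gene, by mean over 16 arrays, stood for it, which left 18820 genes with no filter on dim ones.

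A mean per group was fitted to all 16 arrays with limma 3.58.1 in R 4.3.3 (12 residual and 4.66 prior degrees of freedom). Fasted minus fed wild type was tested two-sided and adjusted by Benjamini-Hochberg over all genes. The procedure was tested on simulated data. Folds are written as at least where the lower group lay under the highest array median over all probe sets (5.29). Over the genes tested the array medians were higher, at 5.66 to 5.83. Folds from a lower group between these levels may thus be inexact as well. Lists are described by counts and medians, without a list test. Alternatives covered scaling, filters, probe sets, variance prior, array weights, blocks, thresholds and arrays left out.

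Members, lists and tests were chosen with earlier results of these data known. Named genes were the 12 largest rises and 12 largest falls above the median level, without overlap, whose call held without each array in turn; up to 3 members per list in the direction with more calls and 1 in the other, under the same conditions; and a set named whatever its test. Predicted genes were skipped. These conditions select for stable calls, so called genes at large are less stable than those named. Gm15441, Cyp4a14, Cd36, Slc27a2, Slc27a4, Fabp1, Hmgcs1, Msmo1, Mvk, Ctrb1 and Cpa1 fall outside this rule, as do members listed without values.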

Additional observations from a re-analysis of the deposited data

Results flagged for a closer look

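The 258 groups of 4 arrays looked at came from 129 printed genes, fed and fasted, and left out the acinar genes Ctrb1 and Cpa1. In 16 of these groups 1 array lay far from the other 3. Its gap to the nearest of them, as a share of the group's range, exceeded the critical value of Dixon's test, where chance gives about 1 in 20 groups. Of these 16, fasted WT 3 and fed WT 4 gave 4 each.

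On fasted WT 3, Cpt1a stood high at 12.49 beside 12.23 to 12.27, Srebf1 low at 6.85 beside 7.13 to 7.18, Mid1ip1 low at 5.97 beside 6.49 to 6.54 and Glul low at 11.71 beside 12.15 to 12.22. On fed WT 4, Cpt1a stood low at 11.41 beside 11.73 to 11.78, Angptl4 low at 8.42 beside 10.02 to 10.24, Gcat high at 8.93 beside 8.29 to 8.38 and Psmb10 high at 9.09 beside 8.63 to 8.70. On fasted WT 4, which carried the pancreas transcripts, only Bdh2 was singled out, low at 6.38 beside 7.08 to 7.20.

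Slc16a1 stood high on fed WT 1 at 9.49 (others 9.07 to 9.13), Cd36 stood high there at 10.54 (others 9.44 to 9.62) and Tat low at 12.29 (others 12.83 to 12.88). Sqle was high on fed WT 2 at 9.63 (others 9.17 to 9.22), and Mbl2 was high on fasted WT 2 at 9.35 (others 9.09 to 9.13). On fed WT 3, Insig1 was low at 11.06 (others 11.55 to 11.60) and Slco1a1 high at 11.90 (others 11.35 to 11.44). The causes were not tested.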

How the results depend on the processing

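Under 34 other settings, 43 of the 118 called genes that were named kept both direction and call in every one, and none of the 118 changed direction. Most of the 118 were chosen because their calls held without each array in turn. Those fits are among the 34 settings, so that part of the stability was fixed by the choice. The count of 1432 called genes (629 higher, 803 lower) became 829 (336 higher, 493 lower) in a fit to the 8 wild type arrays (which also ended the calls of Bhlhe41, Per1, Tat and Vnn1), 576 (250 higher, 326 lower) at an adjusted p below 0.01 and 604 (247 higher, 357 lower) with a minimum of 1.5-fold. Within position number 05 (2 arrays against 2) it was 303 (117 higher, 186 lower), and within number 07 it was 993. Centring on array medians gave 1014 higher genes. Leaving out 1 array gave 880 to 1608 called, 392 to 648 higher and 488 to 960 lower, and 0 to 1 for the difference of the wild type and knockout responses (1 without fasted KO 3). The fit with the replicate block (title number) called 1324 genes and ended no call of a gene given with values. Same-numbered fasted and fed arrays correlated at -0.22 to -0.01 in their deviations from group means, so the numbers were not taken as pairs. Genes whose direction turned had not been called. Pnpla3 (-0.02) read 0.054 with median centring, 0.0042 with quantile normalisation, 0.0054 without the 3 arrays whose name ends in 2 and 0.20 within number 05, and -0.11 to 0.087 with 1 array left out, above 0 without fasted WT 2 (0.087), fed WT 2 (0.0054) or fed WT 4 (0.061). Asns (0.16) read -0.68 within number 07 and -0.57 to 0.94 with 1 array left out, below 0 without fasted WT 3 (-0.26), fasted WT 4 (-0.57), fed WT 1 (-0.098) or fed WT 3 (-0.40). Ppara (0.07) read -0.059 within number 05 and -0.068 (without fed WT 4) to 0.21 with 1 array left out. Glul (0.10) read -0.29 within number 05 and Igf1 (-0.07) 0.011 within number 07. Fabp1 (-0.08) read 0.057 within number 07 and -0.14 to 0.014 with 1 array left out, above 0 without fasted WT 4 (0.014) or fed WT 1 (0.010), and Slc27a4 (0.28) read -0.059 within number 05. The cause was not tested. Without flags of signal over background, low levels limit what a fold can show.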
